A study of Mus musculus with 12 samples.

Results

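The mRNAs described here encode the signalling chains that travel with the T cell antigen receptor (TCR), the CD8 coreceptor and the proteins that act first after the receptor is engaged. They are 10 of the 13283 genes in the deposited table, namely Cd3d, Cd3e, Cd3g, Cd247, Cd8a, Cd8b1, Lck, Zap70, Lat and Cd5. The rows were taken by symbol, from a list chosen with earlier results of these data known. Polyadenylated RNA of cultured mouse cytotoxic T lymphocytes (CTL) was sequenced in 12 libraries, 3 in each of 4 groups. Whether vehicle and inhibitor libraries were split from shared cultures is not stated. The WT groups came from GzmB cre+ mice and the FOXO1-GFP KO groups from FOXO1-GFPfl/fl GzmB cre+ mice, so both genotypes carried Cre recombinase under the granzyme B promoter, which is active in CTL and not in naïve T cells. In the FOXO1-GFP KO the floxed exon 2 of Foxo1, with its EGFP sequence, could be deleted once that promoter was on. All mice were female and aged 11 to 27 weeks. Every culture was started from lymph nodes or spleens with antibodies to CD3 and CD28 at 0.5 µg/ml each for 48 h, with IL-2 at 20 ng/ml and IL-12 at 2 ng/ml, and was kept in both cytokines after the antibodies were washed out. On day 6 the cells were given either DMSO vehicle or IC87114, an inhibitor of the PI3K p110δ catalytic subunit (PI3Kdi), at 10 µM for 24 h. Live CD8+ cells were then sorted, and in the FOXO1-GFP KO also for loss of GFP. CD8 protein was therefore a sorting criterion, and the mRNAs of its chains were measured in cells already selected for it.

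The TCR has no signalling tail of its own. It relies on the CD3 chains, encoded by Cd3d, Cd3e and Cd3g, and on the ζ chain, encoded by Cd247, whose tyrosine motifs are phosphorylated by LCK, a kinase brought to the complex by CD8. ZAP-70 docks on the phosphorylated motifs and phosphorylates LAT, the membrane scaffold from which calcium, RAS and actin signals branch, while CD5 dampens this cascade. Each CTL culture had been driven through this pathway at its start and had been without antibody for several days when the inhibitor was added.

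Cd3g and Cd3d lie head to head on chromosome 9 of GRCm38, with 1354 bases between their annotated starts. Their upstream sequences are printed because these mRNAs moved most closely together, and that of Cd5 because its mRNA went the opposite way. The sequences are RefSeq's for GRCm38.p6, read toward the gene and stopping before the first base of any annotated exon. They are chr9:44981536-44981785 on the + strand for Cd3d, chr9:44980432-44980681 on the - strand for Cd3g and chr19:10739003-10739224 on the - strand for Cd5. Capitals mark CAGGTG, an E box, on either strand.
Cd3d: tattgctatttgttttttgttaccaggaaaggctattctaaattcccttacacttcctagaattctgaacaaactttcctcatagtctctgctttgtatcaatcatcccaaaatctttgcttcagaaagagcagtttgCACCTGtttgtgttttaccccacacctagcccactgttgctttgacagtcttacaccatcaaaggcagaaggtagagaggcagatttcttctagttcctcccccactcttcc
Cd3g: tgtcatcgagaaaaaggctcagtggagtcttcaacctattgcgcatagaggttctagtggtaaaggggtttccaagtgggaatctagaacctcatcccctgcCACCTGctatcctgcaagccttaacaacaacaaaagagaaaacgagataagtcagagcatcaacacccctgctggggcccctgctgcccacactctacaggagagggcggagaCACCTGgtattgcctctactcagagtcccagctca
Cd5: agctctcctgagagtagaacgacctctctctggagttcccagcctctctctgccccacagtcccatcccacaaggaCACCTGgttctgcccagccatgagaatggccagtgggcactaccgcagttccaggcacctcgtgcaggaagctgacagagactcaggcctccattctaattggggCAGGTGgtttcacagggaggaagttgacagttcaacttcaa

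In GENCODE M21 coordinates on GRCm38, Cd3g (9:44969572-44980431), Cd3d (9:44981786-44987339) and Cd3e (9:44998740-45009627) form a cluster, and Cd8b1 (6:71322788-71337494) and Cd8a (6:71373427-71379173) are neighbours on chromosome 6. Cd247 (1:165788681-165877277) and Zap70 (1:36761798-36782818) lie on chromosome 1, Lck (4:129548344-129573641) on 4, Lat (7:126363824-126369570) on 7 and Cd5 (19:10717116-10739002) on 19. All values below are sums over the annotated exons of each gene.

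The 250 bases before each RefSeq start were searched on both strands for 4 sets of letters, in 12 windows that belonged to 9 of the 10 genes. GTAAACA, a forkhead motif, was in none of the 12 windows and in 3.17% of 32851 mouse windows of that length. Unlike the printed sequences, these windows were searched in full, annotated exons included. CAGGTG was in 7 windows of 6 genes, Cd3d, Cd3g, Cd247, Cd5, Lck and Zap70, against 17.2% of all windows and 15.6% when only 222 bases were read, the length printed for Cd5. For the Cd247 window and 1 Zap70 window among these, 0 and 17 bases lay before the first annotated exon base. TGTGGTT, a RUNX motif held by 4.4% of all windows, was in 1 window of Lck. CCGGAAG, an ETS motif held by 6.91% of all windows, was in none. The 4 sets of letters do not overlap each other, and a match describes the letters only.

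All 10 mRNAs were present in every library. Values are FPKM, fragments scaled to exon length and library size, which sets genes on a common scale. The length counts every annotated exon, used in these cells or not, from 1483 bases for Cd8b1 to 5329 for Cd247. The order of genes and the ratios between them therefore depend on the annotation. By the mean over 12 libraries 9 of them stood above 92.5% to 98.7% of the table's genes, and Cd5 above 40.0%. In WT the order by mean was Cd8b1 (259.3 ± 31.2 FPKM, SD, n = 3), Lck (245.6 ± 3.3), Cd3d (203.9 ± 29.5), Cd8a (153.9 ± 6.2), Lat (152.7 ± 19.0), Cd3g (130.5 ± 16.6), Cd3e (77.1 ± 2.6), Zap70 (72.7 ± 6.5), Cd247 (48.5 ± 7.7) and Cd5 (3.64 ± 0.37). Library values of neighbours in that order overlapped for Cd8b1 and Lck, Cd8a and Lat, Lat and Cd3g, and Cd3e and Zap70, and did not overlap for the other neighbours. Reads behind a value ran from 178 to 904 for Cd5 and reached 34004 for Lck, as estimated from FPKM, exon length and the depth recovered from the table, which was 12.9 to 48.0 M reads. Exons of Cd247 overlap those of Pou2f1 on the opposite strand and of Gm16565 on the same strand, and exons of Cd3e overlap the antisense Gm48719. Whether counting used strand is not given in the sources used here, so reads in those overlaps cannot be told apart.

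**Figure D1:**
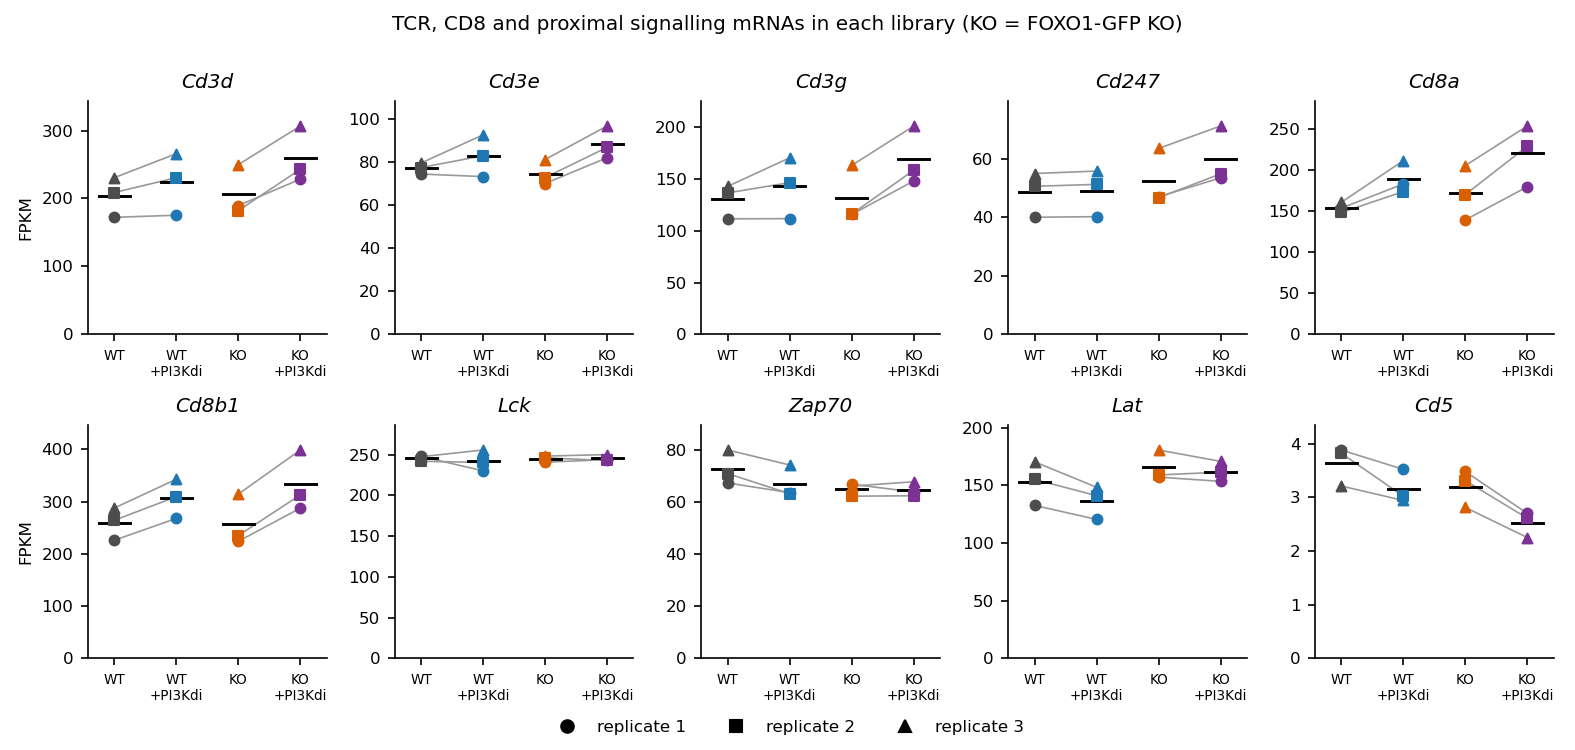
FPKM of each of the 10 genes in the 12 libraries, by group (KO, FOXO1-GFP KO), with points for libraries, marker shapes for replicate numbers, black bars for the mean of 3 and grey lines joining libraries of the same genotype and number. The CD3 and CD8 lines slope up with PI3Kdi in the FOXO1-GFP KO, those of Cd5 slope down in both genotypes, and Lck stays between 230.04 and 255.57 FPKM.

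The targeted gene was measured first. Foxo1 stood at 9.99, 5.77 and 5.79 FPKM in WT with vehicle and, in those given PI3Kdi, at 10.46, 5.84 and 7.50, against 0.58, 1.08 and 1.44 in the vehicle-treated knockout and 0.61, 1.06 and 1.75 in the knockout given PI3Kdi. It was lower in the knockout by log2 values of -2.71 without and -2.76 with PI3Kdi (limma adjusted p = 0.0148 and 0.00478). Without the inhibitor the adjusted p passed 0.05 when WT replicate 1 or 2 or FOXO1-GFP KO replicate 1 or 2 was left out, reaching 0.0760. All 11 CTL markers were in the table. Of other cells' markers 3 of 4 for CD4 T cells, 2 of 5 for γδ or NKT cells, 4 of 5 for NK cells and 5 of 12 for dendritic and myeloid cells were in it. Foxp3, Zbtb16, Ncr1, Ms4a1, Cd79a, Pax5, Lyz2, Csf1r and Adgre1 were not, and Cd4 was at 0.09 to 0.95 FPKM. The 4 B cell markers of 12 that were in the table summed to 13.7 to 16.9 FPKM in WT and 16.8 to 20.7 in WT with inhibitor. In the FOXO1-GFP KO they summed to 6.49 to 8.13 FPKM without and 5.75 to 8.49 with inhibitor.

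The estimated change of each of the 10 genes was under 1.5-fold in every comparison. Under the study's thresholds, an adjusted p under 0.05, with adjustment over the whole table, and more than a 1.5-fold change, limma called 0 of 10 in each of 5 comparisons, the inhibitor within each genotype, the genotype with and without inhibitor, and the difference between the inhibitor responses. The shares of all 13283 genes called were 0.0979%, 0.0452%, 1.45%, 0.331% and 0% in that order. The study applied its thresholds to voom on read counts, and reported many more genes for the inhibitor in WT than the 13 called here. These shares are therefore those of the present fit and not of the study. None of the 10 passed the adjusted p alone either, with limma or with voom on estimated reads. At an unadjusted p under 0.05 limma counted 0, 3, 1, 0 and 0 of them, where 5.14%, 5.17%, 10.2%, 6.51% and 1.51% of all genes passed.

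The replicates are numbered 1 to 3 within each group, and libraries of a genotype that share a number lay off their group means in the same direction. When limma was given these pairs as a block, the shares of all genes called rose to 2.57% and 2.79% for the inhibitor in WT and in the FOXO1-GFP KO, and were 1.18%, 0.233% and 0.0226% in the other comparisons. The 10 genes still gave 0 calls, since none reached a 1.5-fold change. At the adjusted p alone 1 of 10 passed for the inhibitor in WT, where 7.41% of all genes did. In the FOXO1-GFP KO 6 of 10 passed, where 10.1% of all genes did. All 95% intervals of these blocked inhibitor responses lay within the 1.5-fold bounds of 0.585 on the log2 scale, with the outermost ends at -0.49 for Cd5 and 0.54 for Cd3g in the FOXO1-GFP KO. Without the block those intervals were wider, from -0.64 for Cd5 to 0.79 for Cd3g. Below, rose and fell are used only of changes that passed the adjusted p with the pairs as a block.

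**Figure D2:**
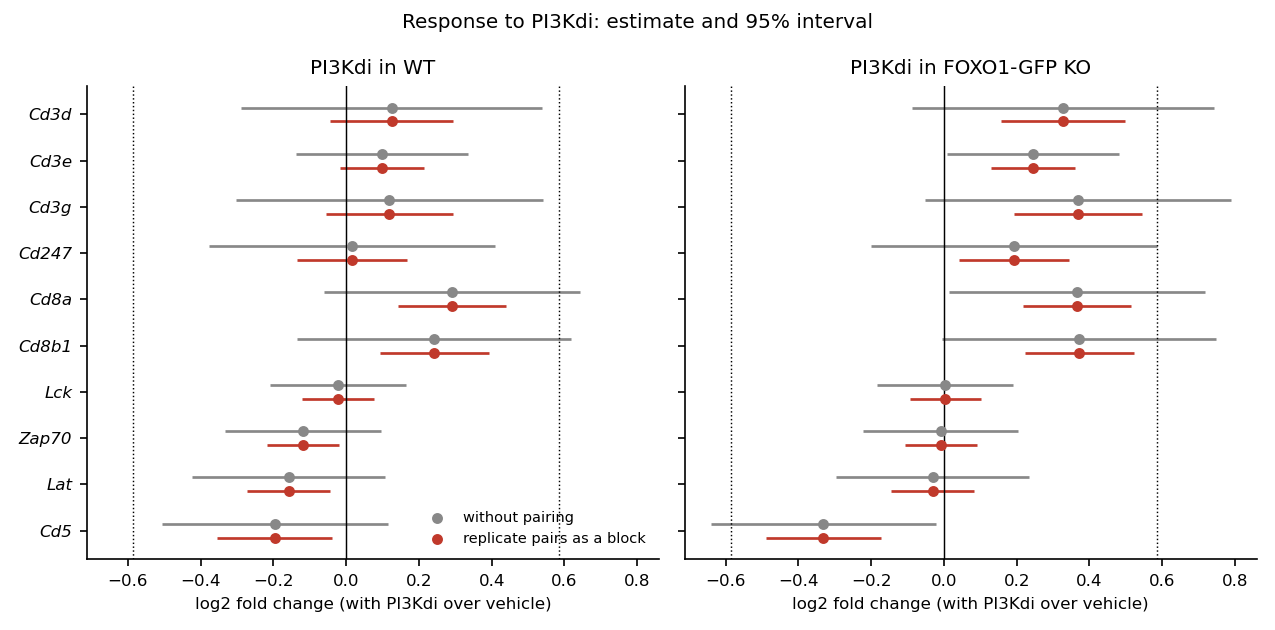
Log2 fold change with PI3Kdi over vehicle for each gene in WT (left) and FOXO1-GFP KO (right), as points with 95% intervals, without the pairs (grey) and with the replicate pairs as a block (red); dotted lines mark a 1.5-fold change. Estimates are the same in both fits and the blocked intervals are narrower, clearing 0 for 5 genes in WT and 7 in the FOXO1-GFP KO before adjustment over all genes.

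The CD3 δ, γ and ε mRNAs rose with the inhibitor in the FOXO1-GFP KO, and none of the CD3 and ζ mRNAs passed the test in WT. Cd3d was at 189.57, 182.21 and 249.79 FPKM in FOXO1-GFP KO replicates 1 to 3 and, with inhibitor, at 228.49, 242.93 and 306.73. Each pair was higher with inhibitor, although the highest vehicle library exceeded the lowest inhibitor libraries, so the groups overlapped. The change was 1.25-fold (log2 0.33 ± 0.08 SE, adjusted p = 0.0242 with the block and 0.933 without it). In WT Cd3d was at 172.25, 208.76 and 230.65 FPKM and with inhibitor at 175.36, 230.61 and 265.98, a log2 difference of 0.12 (adjusted p = 0.361 with the block).

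Cd3g, the divergent neighbour of Cd3d, was at 115.90, 116.32 and 163.33 FPKM in the FOXO1-GFP KO and at 148.28, 158.68 and 201.39 with inhibitor. It rose 1.29-fold there (log2 0.37 ± 0.08, adjusted p = 0.0170 with the block), every pair being higher and the groups overlapping through replicate 3. In WT it was at 111.65, 136.73 and 143.10 FPKM without and 111.82, 146.64 and 170.70 with inhibitor. Replicate 1 of WT was level between the treatments and the other pairs were higher with inhibitor, for a log2 difference of 0.12 (adjusted p = 0.401 with the block).

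Cd3e was at 69.95, 72.72 and 81.07 FPKM in the FOXO1-GFP KO and at 81.93, 86.71 and 96.65 with inhibitor. It rose 1.18-fold (log2 0.24 ± 0.05, adjusted p = 0.0168 with the block), and it was the single CD3 gene whose groups did not overlap. In WT Cd3e was at 74.37, 77.38 and 79.48 FPKM, against 73.17, 82.85 and 92.55 with inhibitor. The pair of replicate 1 was lower with inhibitor and the others higher, for a log2 difference of 0.10 (adjusted p = 0.289 with the block).

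Cd247, for the ζ chain, was at 47.02, 46.72 and 63.53 FPKM in the FOXO1-GFP KO and at 53.46, 54.83 and 71.21 with inhibitor, and at 40.01, 50.59 and 54.97 FPKM in WT against 40.22, 51.26 and 55.80. All 6 pairs were higher with inhibitor, by log2 values of 0.16 to 0.23 in the FOXO1-GFP KO and of 0.0075 to 0.022 in WT. The mean differences were 0.19 and 0.02, with adjusted p values of 0.0948 and 0.922 with the block.

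Both CD8 mRNAs were higher with inhibitor in all 6 pairs. Cd8a, for the α chain that binds LCK, was at 153.37, 148.08 and 160.35 FPKM in WT and at 182.69, 173.40 and 211.12 with inhibitor, so that the groups did not overlap. It rose 1.22-fold in WT (log2 0.29 ± 0.07, adjusted p = 0.0239 with the block and 0.9997 without it). In the FOXO1-GFP KO Cd8a was at 139.05, 169.79 and 205.05 FPKM and with inhibitor at 179.31, 228.58 and 253.21, a rise of 1.29-fold (log2 0.37 ± 0.07, adjusted p = 0.00796 with the block). These groups overlapped, since FOXO1-GFP KO replicate 3 lay above replicate 1 with inhibitor.

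Cd8b1, for the β chain, was at 223.99, 234.96 and 314.26 FPKM in the FOXO1-GFP KO and at 287.35, 312.73 and 398.74 with inhibitor. It rose 1.29-fold there (log2 0.37 ± 0.07, adjusted p = 0.00779 with the block), with overlap through replicate 3. In WT it was at 225.97, 264.24 and 287.68 FPKM without and 267.79, 309.38 and 342.81 with inhibitor. The WT pairs differed by 0.23 to 0.25 on the log2 scale, and the mean of 0.24 narrowly missed the threshold (adjusted p = 0.0545 with the block).

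Lck, the kinase carried by CD8, held a nearly constant level. It was at 247.65, 241.79 and 247.34 FPKM in WT, 230.04, 240.24 and 255.57 in WT given inhibitor, and in the knockout at 240.58, 245.92 and 248.08 with vehicle and 243.75, 242.74 and 249.96 with inhibitor. All groups overlapped. The SD of its log2 value over 12 libraries was 0.038, and of the 10373 genes averaging 1 FPKM or more only 3 had a smaller SD, against a median SD of 0.22. The inhibitor difference was -0.02 in WT (95% interval -0.12 to 0.08) and 0.00367 in the FOXO1-GFP KO (-0.09 to 0.10) with the block.

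Zap70, the kinase that docks on phosphorylated CD3 and ζ chains, was at 67.27, 70.86 and 79.93 FPKM in WT and at 63.56, 63.15 and 74.16 with inhibitor. Each WT pair was lower with inhibitor while the groups overlapped (log2 -0.12 ± 0.05, adjusted p = 0.136 with the block). The FOXO1-GFP KO libraries were at 66.80, 62.22 and 66.07 FPKM and with inhibitor at 63.82, 62.36 and 67.74, where the pairs did not share a direction (log2 -0.00885, 95% interval -0.11 to 0.09 with the block). Vehicle-treated WT and FOXO1-GFP KO libraries did not overlap for Zap70, the knockout being lower by 0.16 on the log2 scale without passing the test (adjusted p = 0.980 without the block). It was the single gene of the 10 whose vehicle groups were separate, and 10.3% of all genes were.

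Lat, the scaffold phosphorylated by ZAP-70, was at 132.59, 155.10 and 170.38 FPKM in WT and at 120.47, 141.04 and 148.34 with inhibitor. All WT pairs were lower with inhibitor by 0.14 to 0.20 on the log2 scale, with overlapping groups (mean -0.16 ± 0.05, adjusted p = 0.0899 with the block). In the FOXO1-GFP KO it was at 157.10, 158.97 and 180.62 FPKM, and at 153.44, 161.41 and 170.77 with inhibitor, with no shared direction (mean -0.03, 95% interval -0.15 to 0.08 with the block). With inhibitor, the FOXO1-GFP KO libraries all lay above the WT libraries, a log2 difference of 0.25 that did not pass the test (adjusted p = 0.535 without and 0.505 with the block).

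Cd5, the inhibitory receptor and the least abundant of the 10, went the opposite way to the CD3 and CD8 mRNAs. It was at 3.48, 3.31 and 2.81 FPKM in the FOXO1-GFP KO and at 2.7, 2.61 and 2.25 with inhibitor, without overlap. It fell to 0.795 of the vehicle level there (log2 -0.33 ± 0.07, adjusted p = 0.0170 with the block). In WT it was at 3.88, 3.82 and 3.21 FPKM without and 3.52, 3.02 and 2.94 with inhibitor, lower in each pair with overlapping groups (log2 -0.20 ± 0.07, adjusted p = 0.122 with the block). With inhibitor the FOXO1-GFP KO libraries were also below all WT libraries (log2 -0.32, adjusted p = 0.479 without and 0.567 with the block).

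Counted by direction, 5 of 10 genes were higher in all WT pairs and 3 lower, where 16.7% and 29.5% of all genes were. In the FOXO1-GFP KO 6 were higher and 1 lower in all pairs, against 23.1% and 26.4% of all genes. The single gene that passed the adjusted p in WT, Cd8a, rose, as did 3.88% of all genes. Of the 6 in the FOXO1-GFP KO 5 rose and 1 fell, where 6.02% of all genes rose and 4.06% fell. Groups without overlap were found for 1 of 10 genes in WT and 2 of 10 in the FOXO1-GFP KO, against 10.2% and 10.1% of all genes, and for 2 of 10 between genotypes with inhibitor, against 14.8%. Of the CTL markers, Cd3d, Cd8a, Cd8b1 and Nkg7 were higher with inhibitor in all 6 pairs, Prf1 and Ifng were lower, and the others were mixed. Some markers of other cells moved with the CD3 and CD8 mRNAs. The γδ T cell gene Trgv2, at 28.34 to 79.17 FPKM, was higher with inhibitor in all 6 pairs, while Trdc, the δ constant region, was at 0.7 to 1.42. The γδ or NKT markers summed to 36.4 to 50.4 FPKM in WT and 51.1 to 67.8 with inhibitor, and to 29.5 to 51.6 and 45.9 to 79.9 in the FOXO1-GFP KO. Trgv2 alone made up most of this sum, and the listed markers Tcrg-C1, Zbtb16 and Sox13 were not in the table. Myeloid markers summed to 17.9 to 23.7 and 17.4 to 29.1 FPKM in WT without and with inhibitor, and to 17.0 to 22.5 and 22.5 to 27.5 in the FOXO1-GFP KO. Cd68 made up most of that sum and was higher with inhibitor in all 3 FOXO1-GFP KO pairs and in 2 of 3 WT pairs. In the FOXO1-GFP KO other myeloid markers did not share its direction. Cd14 and Itgam, at 0.02 to 0.41 FPKM, were lower with inhibitor in all 3 FOXO1-GFP KO pairs, and Itgax and Fcgr3 in 2 of 3. In WT Fcgr3 went from 1.88, 1.55 and 2.01 FPKM to 2.36, 1.89 and 3.1 with inhibitor, higher in each pair. Itgax was level or higher there, and Cd14 and Itgam had mixed directions. NK markers, mostly Eomes, which CTL also express, summed to 85.2 to 93.3 and 87.5 to 116.0 FPKM in WT and to 99.5 to 114.9 and 94.5 to 108.4 in the FOXO1-GFP KO. CD4 T cell markers summed to 4.96 to 8.24 FPKM over all libraries. Of the B cell markers, Ighm and Igkc were higher with inhibitor in all 3 WT pairs, Cd74 was lower and Cd79b mixed. In all 3 FOXO1-GFP KO pairs Ighm was lower and Cd79b higher with inhibitor. The part of these markers in the responses of the 10 genes was not tested.

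The median log2 difference of the 10 was 0.06 in WT and 0.22 in the FOXO1-GFP KO, beside -0.04 and -0.02 over all genes.

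These blocked results rested on few pairs. In the FOXO1-GFP KO the count of 6 became 0 without FOXO1-GFP KO replicate 2, 1 without FOXO1-GFP KO+PI3Kdi replicate 2, and 2 without FOXO1-GFP KO replicate 1 or without FOXO1-GFP KO+PI3Kdi replicate 3. It stayed at 6 without any other library. In WT the count of 1 became 0 when any of the 6 WT libraries was left out, and 2 without FOXO1-GFP KO replicate 3. Over the 12 omissions the adjusted p for the inhibitor in the FOXO1-GFP KO stayed at or below 0.0564 for Cd8b1 and 0.0545 for Cd8a, and reached 0.0830 for Cd5, 0.0936 for Cd3e, 0.106 for Cd3g and 0.144 for Cd3d.

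The difference between the genotypes in their inhibitor response was tested directly and passed for none of the 10. The estimates were between -0.14 for Cd5 and 0.25 for Cd3g on the log2 scale, with a smallest adjusted p of 0.461, for Cd3g with the block, and 1 gene at an unadjusted p under 0.05, where 10.8% of all genes passed with the block. The CD3 rise in the FOXO1-GFP KO is thus not shown to differ from the WT response. Nor did genotype change any of the 10 past the adjusted p in limma or voom, with or without the block. Without inhibitor the largest genotype differences were -0.18 for Cd5 and -0.16 for Zap70, and the median was -0.000265. With inhibitor the 10 ran from -0.32 for Cd5 to 0.29 for Cd247, with a median of 0.16 beside 0.01 over all genes. In RNA pooled from many sorted cells, fewer cells of a type and less RNA per cell cannot be told apart.

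The spread between libraries was divided differently from gene to gene. The replicate pair within a genotype, with 4 of 11 degrees of freedom, held 26.5% of the log2 variance of Cd5 and 42.9% to 72.7% of that of the other 9 genes, the highest being Cd247, while the median gene had 65.1%. The inhibitor held 36.5% to 42.9% for Cd8a, Cd8b1, Cd3e and Cd5, 21.0% and 22.1% for Cd3d and Cd3g, 5.15% for Cd247 and 1.77% for Lck, beside a median of 6.39% over genes with at least 1 FPKM. Genotype held its largest shares in Lat (34.9%), Cd5 (32.1%) and Zap70 (23.6%). These shares are a description and were not tested.

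**Figure D3:**
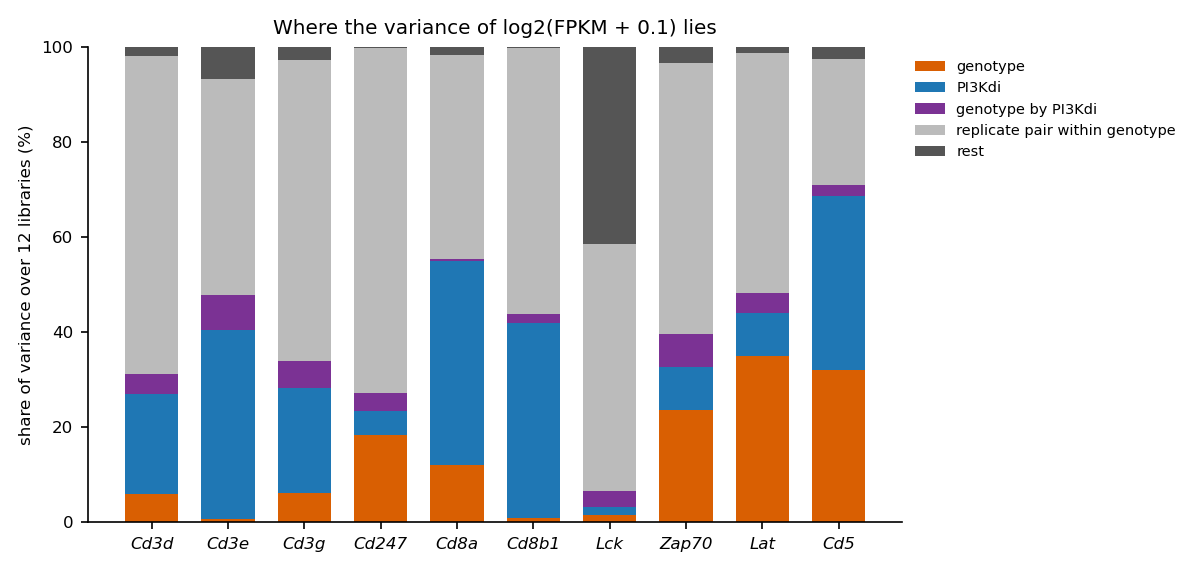
Share of the variance of log2(FPKM + 0.1) over 12 libraries for each gene, in percent, divided among genotype, PI3Kdi, their combination, replicate pair within genotype and the rest. The grey pair share is 26.5% to 72.7%, and Lck, whose whole SD is 0.038, has the largest rest.

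Chains of a complex kept their ratios to different degrees. The ratio of Cd3d to Cd3g FPKM lay between 1.52 and 1.64 in all 12 libraries, although each mRNA alone spanned 172.25 to 306.73 and 111.65 to 201.39 FPKM. The ratio of Cd3d to Cd3e ran from 2.32 to 3.17 and that of Cd247 to Cd3e from 0.54 to 0.78. Cd8b1 exceeded Cd8a by 1.37 to 1.79 times, with vehicle means of 1.68 ± 0.18 in WT and 1.51 ± 0.12 in the knockout and inhibitor means of 1.62 ± 0.16 and 1.52 ± 0.13 (SD, n = 3), whose ranges overlapped. Across the 12 libraries, which share pairs and treatment, the correlation of log2 values was 0.994 for Cd3d and Cd3g, 0.862 for Cd8a and Cd8b1 and 0.482 for Lck and Zap70. Cd5 was inversely related to all CD3 and CD8 genes, with values of -0.814 to -0.864.

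**Figure D4:**
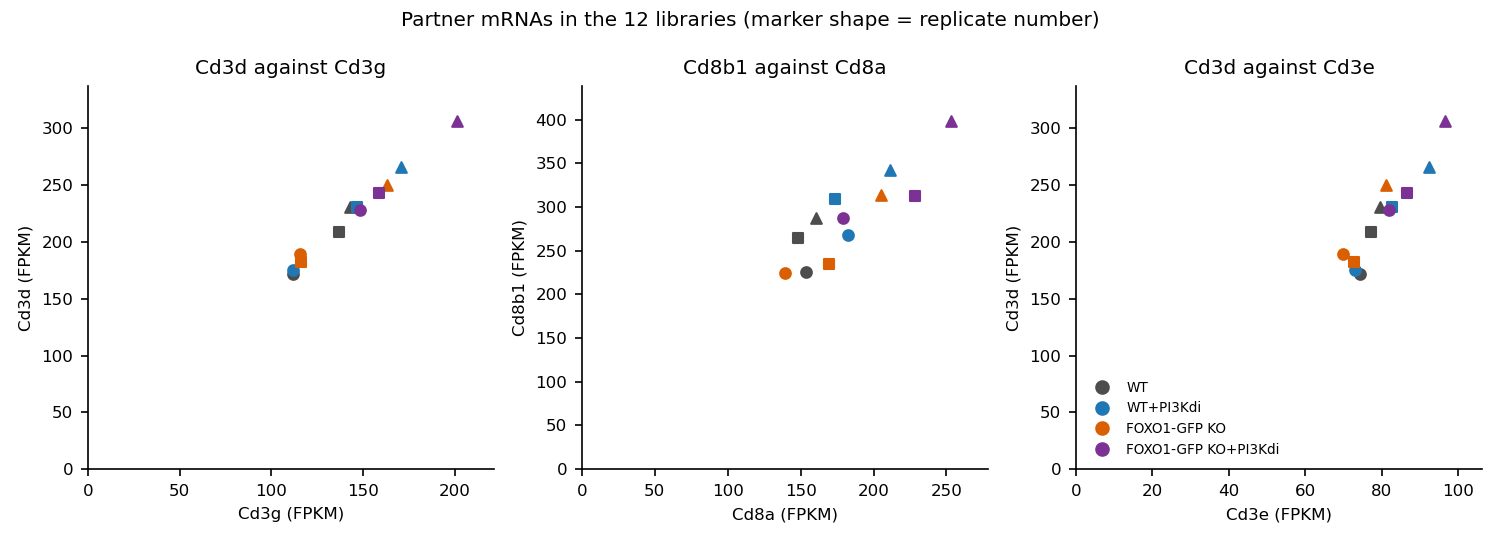
FPKM of Cd3d against Cd3g, Cd8b1 against Cd8a and Cd3d against Cd3e, each point being 1 of 12 libraries, coloured by group with marker shape for replicate number and axes from 0. The Cd3d and Cd3g points lie close to a line through the origin, at ratios of 1.52 to 1.64, and those of the other pairs scatter more.

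The CD3 mRNAs also moved with a measure of the whole library. Ribosomal protein mRNAs took 12.2% to 18.2% of summed FPKM, and across 12 libraries their share correlated at 0.977 with Cd247, 0.968 with Cd3d and 0.955 with Cd3g, at 0.836 with Cd3e, 0.859 with Cd8b1 and 0.655 with Cd8a, and at -0.824 with Cd5. The share went from 13.9% to 15.9%, 14.02% to 16.01% and 16.9% to 18.2% in the FOXO1-GFP KO pairs, and from 12.2% to 12.3%, 15.02% to 15.55% and 16.4% to 16.7% in the WT pairs. Mitochondrially encoded mRNAs took 3.11% to 6.80%, and their share correlated at 0.907 with Cd247 and 0.824 with Cd3d, while correlations of the 10 genes with depth ran from -0.553 for Cd8a to 0.486 for Cd5. The part of these measures in the responses above was not tested. When trends with exon length and GC content were removed from each library, a choice made after the data were seen, 7 genes passed the adjusted p with the block for the inhibitor in the FOXO1-GFP KO and 4 in WT, against 11.1% and 8.49% of the 13270 genes tested in that way. Lat joined the 6 in the FOXO1-GFP KO (log2 -0.12, adjusted p = 0.0453), and Cd8b1, Zap70 and Lat joined Cd8a in WT (0.26, -0.15 and -0.17, adjusted p = 0.00568, 0.0174 and 0.00755).

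**Figure D5:**
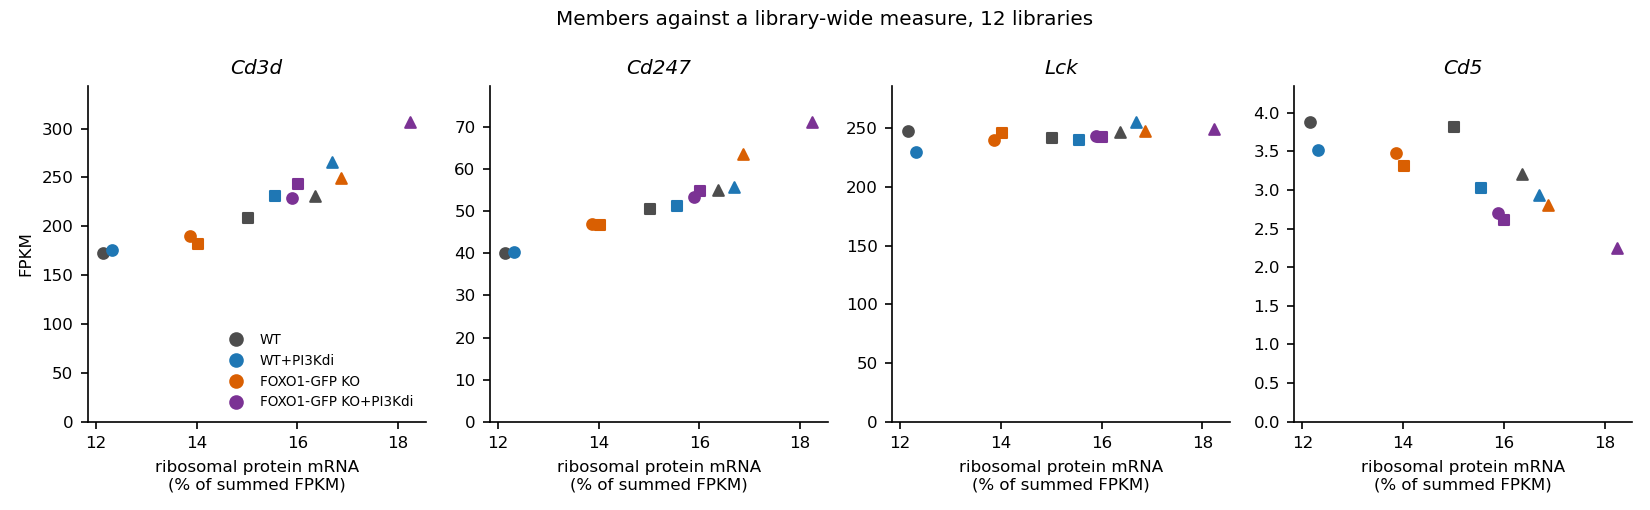
FPKM of Cd3d, Cd247, Lck and Cd5 (vertical axes, from 0) against the share of summed FPKM held by ribosomal protein mRNAs in percent (horizontal axes), 1 point per library, coloured by group with marker shape for replicate number. Cd3d and Cd247 climb with the share, Cd5 declines and Lck is flat.

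The gene most like each of the 10 was sought among 9541 genes outside the 10 by the correlation of log2 values over the same 12 libraries. It was Gpank1 for Cd3d (0.990), Tmem234 for Cd3g (0.986), Gatd1 for Cd3e (0.982), Psmg4 for Cd247 (0.990), Tafa3 for Cd8a (0.971), Izumo4 for Cd8b1 (0.979), Podnl1 for Zap70 (0.915), Fbxo7 for Lat (0.972) and Dot1l for Cd5 (0.972). Among the 10 themselves, Cd3d and Cd3g were more alike (0.994) than either was to its match here. Lck had the weakest best match, Lcmt2 at 0.850. With 12 points and 9541 candidates such values are a description only.

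Around these 10, 57 other genes of TCR signalling were all in the table. Without the block limma called 1 of 57, Cd6, a CD5-related surface receptor, which was 1.62-fold higher in the FOXO1-GFP KO than in WT with inhibitor (log2 0.70 ± 0.12, adjusted p = 0.0137). Of all genes 1.45% were called in that comparison. Cd6 was at 4.80, 4.93 and 5.13 FPKM against 3.39, 2.98 and 2.7. Leaving out replicate 2 or 3 of either of those groups raised the adjusted p to as much as 0.0687. In both genotypes Cd6 fell with inhibitor as Cd5 did in the FOXO1-GFP KO (log2 -0.37 in WT and -0.24 in the FOXO1-GFP KO, adjusted p = 0.00395 and 0.0329 with the block).

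With the block 7 of the 57 passed the adjusted p for the inhibitor in WT, 5 higher and 2 lower, and 12 in the FOXO1-GFP KO, 6 in each direction. Of all genes 7.41% and 10.1% passed, and 2.57% and 2.79% were also past 1.5-fold. Trat1, a TCR-associated adaptor, was the single gene of the 57 past 1.5-fold in each genotype (2.01-fold and 1.64-fold, adjusted p = 0.00959 and 0.0407), at levels of 0.02 to 1.46 FPKM. Its call was lost in 3 of 12 omissions in WT and in 7 of 12 in the FOXO1-GFP KO. Trat1 also had log2 genotype differences of -1.66 with and -1.37 without inhibitor. These did not pass in limma on log2 FPKM (adjusted p = 0.104 and 0.347 without the block). The study, with voom on read counts, listed Trat1 among the mRNAs reduced in the FOXO1-GFP KO with inhibitor. Prkcq, the kinase PKCθ, and Sla2, an adaptor that restrains the receptor, rose in both genotypes (log2 0.27 and 0.36 in WT and 0.18 and 0.29 in the FOXO1-GFP KO), and Dok1, an inhibitory adaptor, rose in the FOXO1-GFP KO (0.35, adjusted p = 0.00661). Pag1, an anchor for the LCK-inhibiting kinase CSK, fell in both (-0.54 and -0.48). Sla, related to Sla2, and Lcp2, encoding the LAT partner SLP-76, fell in the FOXO1-GFP KO (-0.49 and -0.25) and were lower there than in WT with inhibitor (-0.94 and -0.64, adjusted p = 0.0484 and 0.0435 with the block), calls that were lost in 12 and 10 of 12 omissions. The costimulatory receptor Cd28 and the thymocyte adaptor Themis had log2 genotype differences of -1.14 and -0.70 with inhibitor that did not pass with the block (adjusted p = 0.0543 and 0.107). The receptor's β constant regions Trbc1 and Trbc2 had blocked adjusted p values of 0.0744 and 0.0899 in the FOXO1-GFP KO at log2 0.32 and 0.33. Its α constant region Trac was at log2 0.08 there and -0.06 in WT (adjusted p = 0.500 and 0.668 with the block). The medians of the 57 were -0.02 in both genotypes, beside -0.04 and -0.02 over all genes, and no gene of the list passed for the difference between the responses.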

How the data were processed

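Per the labels and the study's methods, paired-end reads of 75 bp from TruSeq Stranded mRNA libraries, sequenced on 1 lane, were aligned by the authors with STAR 2.7.1a to GRCm38.p6, counted per gene, filtered for low expression, scaled by TMM and deposited as FPKM from edgeR. The setting of strand in counting is not given in the sources used here. Groups came from the sample labels. The 10 members and the wider list were chosen with earlier results of these data known.

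FPKM was analysed as log2(FPKM + 0.1) for all 13283 genes in limma 3.58.1 (R 4.3.3), with 4 group means from 12 libraries, empirical Bayes with a mean-variance trend and Benjamini-Hochberg adjustment. Fold changes are on that scale. Depth was recovered from FPKM steps of short genes (held-out genes gave whole reads for 98.5% to 99.4% of values, within rounding plus 0.02 reads, against 11.5% to 31.9% by chance), and exon lengths came from GENCODE M21 for 13276 genes. The depth and limma steps were tested on simulated data. Alternatives were other pseudocounts, a minimum mean of 1 FPKM, median-of-ratios scaling, no trend, 2-group fits, voom, pair blocks and omission of each library.

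Pairing was checked by correlating deviations from group means over 10373 genes. Libraries of a genotype sharing a number correlated at 0.596 to 0.838 in WT and 0.594 to 0.779 in the FOXO1-GFP KO, and across genotypes at -0.499 to 0.730. The pairing thus comes from the replicate numbers and these values, since no label ties same-numbered libraries to a mouse or day. The block was the number within genotype (duplicateCorrelation, consensus 0.757). The mice behind each replicate are not named, so p-values measure the spread between these libraries. The genes to name were the 10 members, Foxo1, wider-list genes called with or without the block, up to 3 largest rises and 3 largest falls per comparison at a mean of at least 1 FPKM, of which some are given, and the gene most correlated with each member. Trac was named in addition, beside Trbc1 and Trbc2.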

Additional observations from a re-analysis of the deposited data

How the results depend on the processing

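Under 37 settings none of the 10 genes was called at the adjusted p and 1.5-fold together, and no estimate exceeded 0.53 on the log2 scale. The replicate block decided how many passed the adjusted p alone. For the inhibitor in WT the count went from 0 to 1 with the block within genotype, 2 with pairs as fixed terms, 2 with voom and the block and 4 with length and GC trends removed and the block, and in the FOXO1-GFP KO from 0 to 6, 7, 6 and 7. The shares of all genes passing in those fits were 7.41%, 6.02%, 7.13% and 8.49% in WT and 10.1%, 14.3%, 12.3% and 11.1% in the FOXO1-GFP KO. Leaving out 1 library gave 0 to 2 and 0 to 6. The trend removal, and all alternatives for the wider list and Foxo1 except the block within genotype, were chosen after seeing the data. Wider-list calls for the inhibitor in WT were 1 with the block, with fixed terms, with voom and the block and with trends removed and the block, and 0 to 2 without 1 library; in the FOXO1-GFP KO they were 1 with the block, with fixed terms and with trends removed and the block, and 0 to 1 without 1 library. All genes were called at 1.91% to 2.68% in those WT fits and 2.47% to 2.79% in those FOXO1-GFP KO fits. For genotype with inhibitor the call of 1 became 0 with a pseudocount of 1 or with only the groups compared, 3 with the block, 6 with a block on the number shared across genotypes, 4 with voom and the block, 5 with trends removed, 6 with trends removed and the block, and 0 to 3 without 1 library, where 1.06%, 0.708%, 1.18%, 3.31%, 1.21%, 1.89% and 1.59% of all genes were called in the first 7 of these. Without inhibitor the 0 calls became 1 with the shared-number block and 2 with trends removed, with or without the block, beside 1.34%, 0.399% and 0.58% of all genes. Foxo1 without inhibitor kept its value of -2.71 with only the groups compared but lost the call (adjusted p = 0.0898), and ran from -2.97 to -2.38 without 1 library. The cause was not tested. Of 620 member values under 13 other settings 13 changed sign, all near 0. With median-of-ratios scaling Lck became 0.0078 for the inhibitor in WT and 0.010 for genotype without inhibitor, and Zap70 0.0031 for the inhibitor in the FOXO1-GFP KO. With trends removed, with and without the block, Lck became -0.0401 for the inhibitor in the FOXO1-GFP KO, -0.0370 for genotype with inhibitor and -0.0236 for the difference of responses, Cd8b1 -0.0224 for genotype with inhibitor and Cd3d -0.0088 for genotype without. Without 1 library, 19 values changed sign. For the inhibitor in WT the ranges were -0.0095 to 0.29 for Cd3d, -0.019 to 0.29 for Cd3g, -0.12 to 0.15 for Cd247 and -0.063 to 0.017 for Lck, and in the FOXO1-GFP KO -0.0094 to 0.014 for Lck, -0.043 to 0.018 for Zap70 and -0.070 to 0.033 for Lat. For genotype with inhibitor they were -0.025 to 0.21 for Cd8b1, -0.018 to 0.062 for Lck and -0.088 to 0.028 for Zap70, and without inhibitor -0.12 to 0.11 for Cd3d, -0.16 to 0.087 for Cd3g, -0.037 to 0.20 for Cd247, -0.0019 to 0.28 for Cd8a, -0.17 to 0.075 for Cd8b1 and -0.030 to 0.028 for Lck. For the difference of responses they were -0.067 to 0.22 for Cd8a, -0.0072 to 0.28 for Cd8b1 and -0.014 to 0.067 for Lck.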
